A study of Rattus norvegicus with 12 samples.

Results

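Macrophage marker genes were followed in the atria of rats with and without volume overload of the heart. The members were 10 genes: Cd163 and Mrc1, which mark resident-type macrophages, and the general markers Lyz2, Aif1, Cd68, Csf1r, Adgre1, Ptprc, Cybb and Cd14. They were found by their symbols in the annotation of the array's probe sets (groups of short probes read as 1 value), keeping probe sets assigned to a single gene. All 10 were present, with 13 probe sets, among 14217 genes named by the 31042 probe sets tested; 7 had 1 probe set, and Aif1, Cybb and Ptprc had 2 each.

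All animals were male Sprague-Dawley rats, whose right and left atrial appendages were studied 28 days after an aorto-caval shunt, which joins the abdominal aorta to the vena cava, or after a sham operation. Both operations and both atria gave 4 groups of 3 biological replicates, and each replicate was 1 array hybridised with RNA pooled from 2 tissues, so that differences between single animals are averaged within a pool. The labels name no genetic change and no drug. The tissue entry of every sample names heart atria together with ventricles, while titles and source names give the right or left atrium. The mean log2 level of the 7 measured atrial cardiomyocyte markers lay between 12.01 and 12.33 on every array.

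Macrophages are phagocytes that live in the heart between cardiomyocytes and fibroblasts, where they clear dead cells and debris and take part in repair and scarring. A resident pool renews itself locally, and blood monocytes that enter an overloaded or injured heart add to it. CSF1R, the receptor for the growth factors CSF1 and IL-34, keeps both alive. CD163, which takes up haemoglobin bound to haptoglobin, and the mannose receptor MRC1 are used as marks of resident-type cells, whereas lysozyme (Lyz2), CD68 and the leukocyte phosphatase CD45 (Ptprc) are carried by most macrophages and, for Ptprc, by all leukocytes. In bulk tissue, more cells of a type and more RNA per cell cannot be told apart.

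Values are log2 expression values, so that a difference of 1 is a 2-fold change, and levels are compared only within a probe set, never between genes. Differences come from a limma fit over all 12 arrays with their standard error (SE), and "rose", "fell" or "passed" is used only at an adjusted p of at most 0.05 over all 31042 probe sets. For each gene the probe set with the highest mean stood for it. These 10 probe sets all lay above the median level of all probe sets, 5.46, although Adgre1 (mean 5.51) and Aif1 (mean 5.67) lay close to it.

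Replicate 3 of the shunted left atrium stood apart, in these genes and over all genes. Its score on the second principal component was 26.70, while the remaining arrays of that group scored -14.95 and -13.62. All 10 members were lower on it than on both of those arrays, as were 37.7% of all genes, and 5 members (Cd163, Mrc1, Cd68, Csf1r and Adgre1) had their lowest value of all 12 arrays there, as did 10.9% of all genes. The mean log2 level of 6 fat markers was 9.26 on it, against 8.07 and 8.41 on the other 2 and 8.21 to 8.33 on left atrium sham arrays. Ucp1 had the largest gap, at 7.56 on replicate 3 against 4.22 and 4.66 on the other 2. Adipoq, Plin1, Fabp4 and Cidea were higher on replicate 3 by less, and Lpl (12.58) lay between the other 2 arrays (12.6 and 12.46). The part of fat in the values of replicate 3 was not tested. Results that rest on this array are given with and without it.

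All 10 members had higher means on the right atrial shunt arrays, though only 4 passed the test, and the promoters of 4 are shown: Cd163 and Mrc1 as the resident-type markers, and Lyz2 and Cybb as general markers with higher shunt values in both atria. They are the 250 bases before the annotated gene start, 5′ to 3′ on the strand of the gene, from RefSeq (build GRCr8), which held 9 of the 10 members (not Aif1). Capitals mark GAGGAA or its reverse complement TTCCTC, the core of the sites bound by PU.1, the transcription factor of the myeloid lineage.
Cd163 (chr4:158770524-158770773, + strand): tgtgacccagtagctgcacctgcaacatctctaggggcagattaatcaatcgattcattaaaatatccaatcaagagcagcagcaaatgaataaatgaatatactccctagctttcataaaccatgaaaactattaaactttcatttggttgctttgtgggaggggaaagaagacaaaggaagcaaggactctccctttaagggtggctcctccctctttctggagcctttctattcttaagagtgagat
Mrc1 (chr17:82157475-82157724, + strand): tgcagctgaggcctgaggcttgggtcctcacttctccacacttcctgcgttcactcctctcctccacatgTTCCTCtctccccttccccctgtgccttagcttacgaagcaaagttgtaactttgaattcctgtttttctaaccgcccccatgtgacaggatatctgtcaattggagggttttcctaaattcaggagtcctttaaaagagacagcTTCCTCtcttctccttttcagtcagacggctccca
Lyz2 (chr7:54798012-54798261, - strand): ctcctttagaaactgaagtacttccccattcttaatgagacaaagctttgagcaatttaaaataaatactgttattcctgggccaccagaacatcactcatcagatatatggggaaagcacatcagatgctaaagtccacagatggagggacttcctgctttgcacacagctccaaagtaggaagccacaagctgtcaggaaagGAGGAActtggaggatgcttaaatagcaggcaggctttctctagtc
Cybb (chrX:16065066-16065315, - strand): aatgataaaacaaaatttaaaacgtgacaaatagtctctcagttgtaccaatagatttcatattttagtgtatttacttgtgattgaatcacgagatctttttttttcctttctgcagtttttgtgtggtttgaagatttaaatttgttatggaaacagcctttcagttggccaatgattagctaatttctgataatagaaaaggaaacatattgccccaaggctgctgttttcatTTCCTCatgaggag
In these windows GAGGAA occurred on either strand in 8 of the 9 promoters (all but Cd163), against 23.3% of all 33469 promoters of the same length. The longer GAGGAAG, which contains it, occurred in 4 of the 9 against 10.2%, and GAGGAAGT in 0 of the 9 against 2.04%. Of 3 other motifs searched on both strands, TTGCNNAA (C/EBP type) was found in 2 of the 9 against 9.22%, TGANTCA (AP-1 type) in 2 against 6.34%, and CATGTG (E-box of the MITF and TFE factors) in 2 against 12.1%. A match describes these letters and is not evidence of binding.

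The comparison of shunt with sham in the right atrium asked whether macrophage transcripts were more abundant there after volume overload of the heart. All 10 genes were higher after the shunt, by a median of 0.49 on the log2 scale, against 0.02 over all 14217 genes. Of the 10, Aif1, Cybb, Lyz2 and Mrc1 rose, none fell and 6 did not pass, where 2.83% of all genes rose and 1.14% fell. In 9 of the 10, all but Ptprc, the 3 shunt arrays lay above the 3 sham arrays, where 19.4% of all genes did so.

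Among general markers, Lyz2 encodes the lysozyme that macrophages secrete to break bacterial walls. Its log2 level was 9.98, 9.87 and 9.91 on the right atrium sham arrays and 10.77, 10.56 and 10.48 on the shunt arrays, with no overlap. The rise was 0.68 ± 0.14 (SE of the limma fit over all arrays, with 3 pools in each group, adjusted p = 0.0278), or 1.6-fold. Aif1, which encodes the calcium-binding cytoskeletal protein IBA1, lay at 5.65, 5.56 and 5.45 in sham and at 6.29, 6.41 and 6.17 after the shunt. It rose by 0.74 ± 0.15 (adjusted p = 0.023), or 1.67-fold, the largest difference of the 10 genes.

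Cybb encodes the catalytic subunit of the phagocyte NADPH oxidase, which makes superoxide. Its sham levels were 7.10, 7.08 and 6.87 and its shunt levels 7.68, 7.87 and 7.57, again apart, a rise of 0.69 ± 0.16 (adjusted p = 0.0418). Csf1r lay at 7.62, 7.71 and 7.65 in sham and at 8.36, 8.14 and 8.13 after the shunt, a difference of 0.55 ± 0.17 that did not pass (adjusted p = 0.0951). Cd14, the co-receptor for bacterial lipopolysaccharide, lay at 7.43, 7.37 and 7.27 against 7.63, 7.86 and 7.89, and differed by 0.44 ± 0.12 (adjusted p = 0.0663). Both genes had groups that did not overlap.

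Cd68, a lysosomal glycoprotein gene, lay at 5.94, 6.24 and 6.13 in sham and at 6.69, 6.44 and 6.44 after the shunt, a difference of 0.42 ± 0.16 (adjusted p = 0.174). Adgre1, the gene of the F4/80 surface receptor, lay at 6.05, 6.09 and 5.87 against 6.39, 6.49 and 6.32, a difference of 0.40 ± 0.14 (adjusted p = 0.148). The shunt arrays were the higher ones for both genes without passing the test. Ptprc differed least of the 10. Its levels of 6.66, 6.37 and 6.36 in sham overlapped those of 6.56, 6.54 and 6.59 after the shunt, and the difference was 0.10, with a 95% interval from -0.25 to 0.46 (adjusted p = 0.788).

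Both resident-type markers were also higher in the right atrium. Mrc1 lay at 7.61, 7.58 and 7.38 in sham and at 8, 8.18 and 8.17 after the shunt, and rose by 0.59 ± 0.14 (adjusted p = 0.0427), or 1.5-fold. Cd163 lay at 6.12, 6.43 and 6.32 in sham and at 6.68, 6.65 and 6.69 after the shunt. The arrays did not overlap, and the difference of 0.38 ± 0.12, or 1.30-fold, did not pass (adjusted p = 0.114).

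With any single right atrium array left out, 0 genes passed, or Aif1 alone (without sham replicate 1 or shunt replicate 3); without left atrium sham replicate 3, Lyz2 and Aif1 passed. Leaving out the left atrial array that stood apart gave 8 genes, adding Cd68, Csf1r, Adgre1 and Cd14. In that fit 4.54% of all genes rose, against 2.83% in the main fit. The added genes had the same differences in both fits and a smaller SE, as with Csf1r (0.55 ± 0.09 against 0.55 ± 0.17). After quantile normalization again only Lyz2 and Aif1 of the 4 passed, where 1.62% of all genes rose. When the model held no left atrial arrays, 8 passed, adding Cd163, Csf1r, Adgre1 and Cd14, and the share of all genes was not counted. No setting tried turned the direction of a called gene.

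Markers of several other cell types and a sign of RNA quality, from beta-actin but not from GAPDH, also separated the right atrial shunt arrays from the sham arrays. The mean log2 level of 7 ventricular cardiomyocyte markers was 8.21 to 9.09 on the shunt arrays against 7.72 to 7.89 on the sham arrays. Of the 7 genes, 5 rose, where 2.83% of all genes rose and 1.14% fell. The mean of 7 blood endothelial markers was 9.08 to 9.20 against 8.87 to 8.96, with 7 of 7 genes higher, of which Esam, a junction protein gene, rose (0.37 ± 0.08, adjusted p = 0.0341). The mean of 7 atrial cardiomyocyte markers was 12.01 to 12.12 against 12.27 to 12.33, and the potassium channel gene Kcna5 fell among them. The mean of 6 fat markers was 7.92 to 8.01 against 8.16 to 8.38, with no gene past the threshold in limma's test. An unadjusted p under 0.05 was found for 1 of the 6, against 22.4% of all genes. The beta-actin 3′ minus 5′ difference was 1.91 to 2.03 on the shunt arrays and 1.58 to 1.82 on the sham arrays. That of GAPDH overlapped, at 0.35 to 0.38 on the shunt arrays and 0.32 to 0.4 on the sham arrays. The part of these cell types and of RNA quality in the result was not tested.

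**Figure D1:**
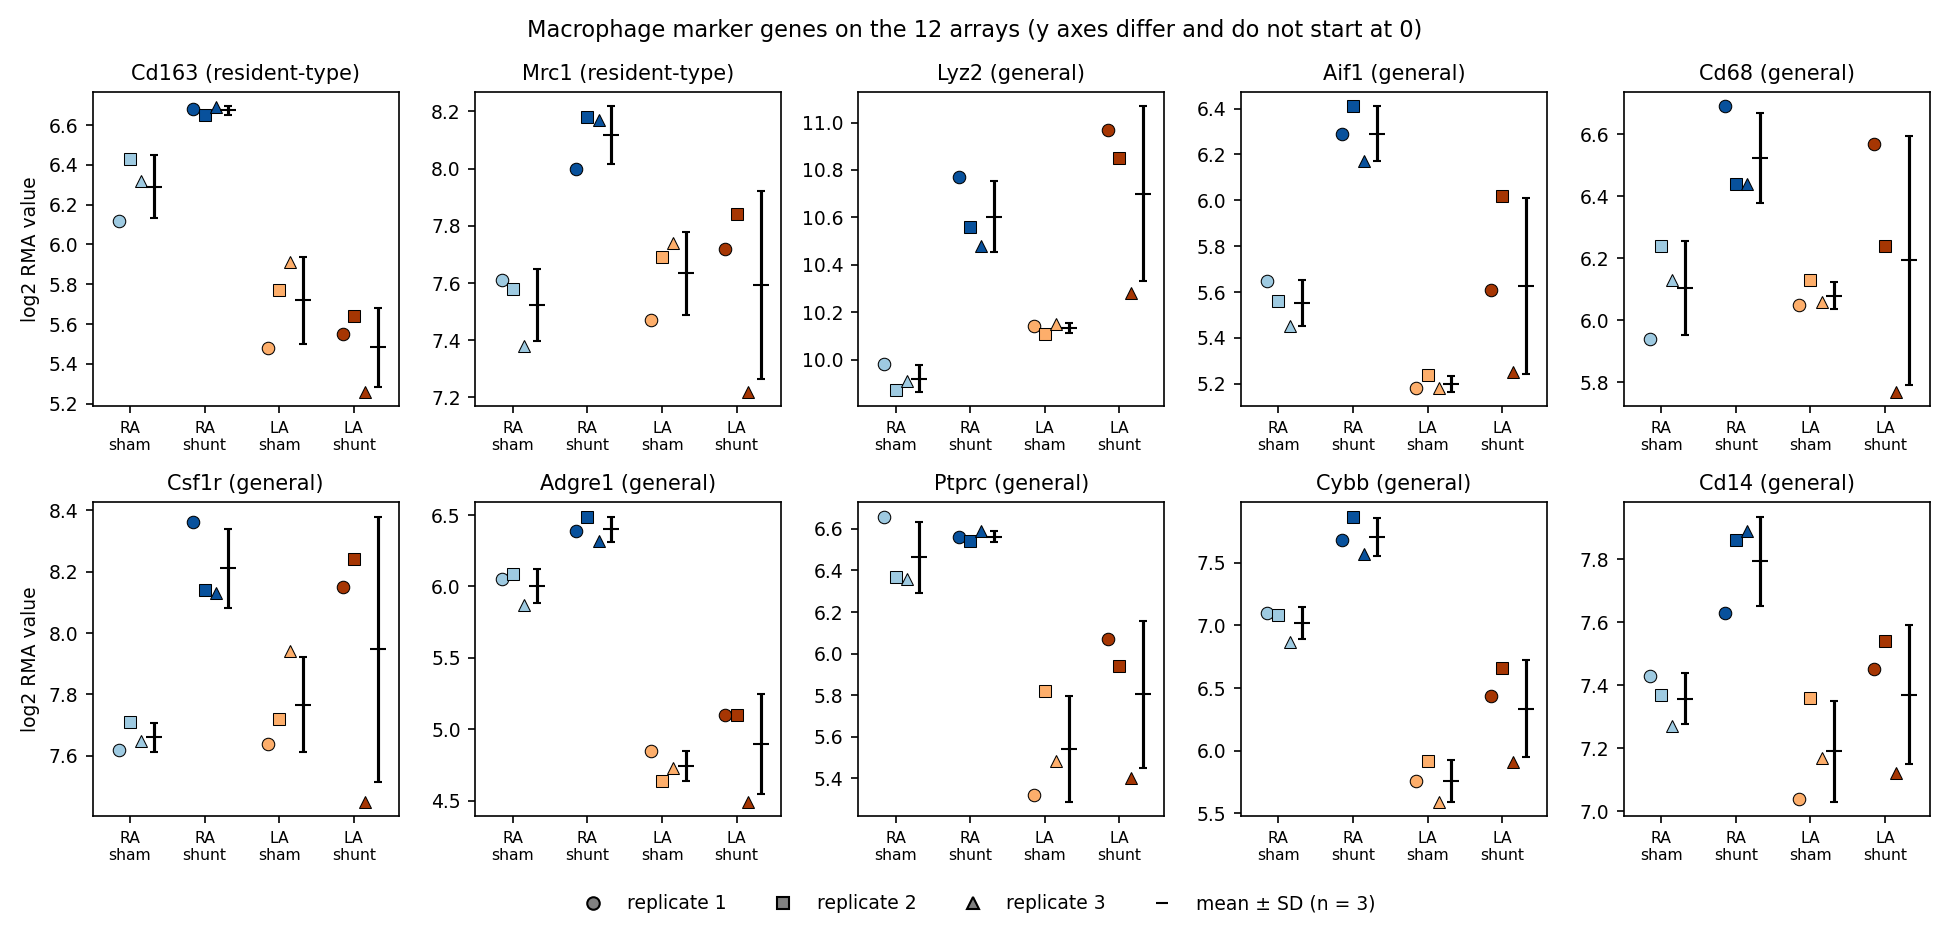
Log2 RMA value (y axis, a separate scale per gene that does not start at 0) of the brightest probe set of each of the 10 genes in right atrium (RA) and left atrium (LA) sham and shunt arrays, with 1 point per pool, the replicate number as its shape, and the mean ± SD of 3 pools beside it. In 9 of 10 genes, all but Ptprc, the right shunt points lie above the right sham points, and left shunt replicate 3, the triangle, is the lowest left shunt point for all 10.

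In the left atrium, none of the 10 genes passed in limma's test, where 0.935% of all genes did. An unadjusted p under 0.05 was found for 3 of the 10 (Lyz2, Cybb and Aif1), against 14.7% of all genes, and for Lyz2 and Aif1, 2 of the 10, all shunt arrays lay above all sham arrays, against 8.69%. The 8 general markers were higher after the shunt, by 0.11 to 0.58, and both resident-type markers were lower. The median difference over the 10 genes was 0.18, against -0.01 over all genes.

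The general markers with the largest right atrial differences also had the largest left atrial ones. Lyz2 lay at 10.14, 10.11 and 10.15 in left atrium sham and at 10.97, 10.85 and 10.28 after the shunt, a difference of 0.56 ± 0.14 (adjusted p = 0.101). Cybb lay at 5.76, 5.92 and 5.59 in sham and at 6.44, 6.66 and 5.91 after the shunt, a difference of 0.58 ± 0.16 (adjusted p = 0.126). The lowest shunt array of Cybb, replicate 3, fell within the sham range. Aif1 lay at 5.18, 5.24 and 5.18 in sham and at 5.61, 6.02 and 5.25 after the shunt, a difference of 0.43 ± 0.15 (adjusted p = 0.218), with replicate 3 barely above sham.

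The remaining general markers differed by less: Ptprc by 0.26 ± 0.16, Csf1r by 0.18 ± 0.17, Cd14 by 0.18 ± 0.12, Adgre1 by 0.15 ± 0.14 and Cd68 by 0.11 ± 0.16 (adjusted p between 0.516 and 0.804). On shunt replicates 1 and 2 all 8 general markers lay above every left atrium sham array, as did 16.4% of all genes, and on replicate 3 Cd68, Csf1r and Adgre1 lay below every sham array.

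Cd163 lay at 5.48, 5.77 and 5.91 in left atrium sham and at 5.55, 5.64 and 5.26 after the shunt, and differed by -0.23 ± 0.12 (adjusted p = 0.445). Mrc1 lay at 7.47, 7.69 and 7.74 in sham and at 7.72, 7.84 and 7.22 after the shunt, a difference of -0.04 ± 0.14 (adjusted p = 0.933). The shunt and sham arrays overlapped for both genes.

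Without left atrium shunt replicate 3, Cybb (0.80 ± 0.12, adjusted p = 0.0063), Lyz2 (0.78 ± 0.09, adjusted p = 0.00117) and Aif1 (0.62 ± 0.12, adjusted p = 0.0204) rose in the left atrium, where 1.33% of all genes rose in the same fit. Csf1r then differed by 0.43 ± 0.10 (adjusted p = 0.057), Mrc1 by 0.15 ± 0.10 (adjusted p = 0.584) and Cd163 by -0.12 ± 0.12 (adjusted p = 0.725). Down-weighting arrays that disagree with their group gave replicate 3 a weight of 0.368, the lowest of the 12, and with these weights Lyz2 and Cybb passed. The mean log2 level of 3 erythrocyte markers was 8.88 and 8.78 on shunt replicates 1 and 2 and 8.18 on replicate 3, against 8.31 to 8.47 in left atrium sham, high and low on the same arrays as the general markers. The ventricular marker mean was 6.98 to 7.31 on the shunt and 6.5 to 6.79 on the sham arrays, and Myh7, a ventricular myosin gene, rose over all 12 arrays (1.44 ± 0.22, adjusted p = 0.0124). The part of both in the left atrial values was not tested.

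**Figure D2:**
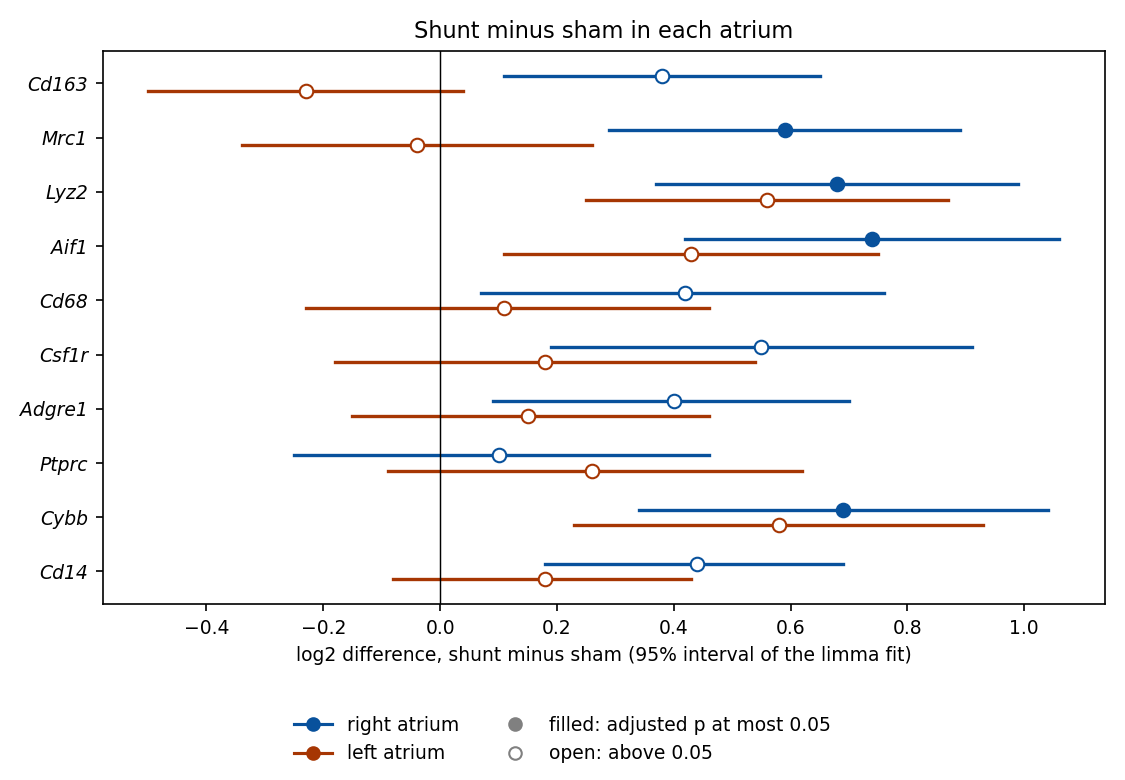
Log2 difference, shunt minus sham (x axis), of each gene's brightest probe set in the right and left atrium, with the 95% interval of the limma fit over 12 arrays; filled points have an adjusted p of at most 0.05. The right atrial points of all 10 genes lie above 0, from 0.10 to 0.74, and in the left atrium Cd163 (-0.23) and Mrc1 (-0.04) lie below 0.

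Averaged over both atria, Cybb (0.64 ± 0.11, adjusted p = 0.00907), Lyz2 (0.62 ± 0.10, adjusted p = 0.00546) and Aif1 (0.58 ± 0.10, adjusted p = 0.00882) rose, where 3.4% of all genes rose. These 3 passed in this average whichever single array was left out. Cd163, at 0.07 ± 0.09 (adjusted p = 0.719), had the smallest average of the 10.

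The difference between the shunt effects of the atria was tested directly as an interaction, left minus right. No member passed in limma's test, where 0.0281% of all genes did, and 2 of the 10 had an unadjusted p under 0.05, against 14.5% of all genes. Those 2 were the resident-type markers. A count of 2 in 10 lies near the share of all genes and is not read as a result about these markers. Mrc1 had an interaction of -0.63 ± 0.20 (adjusted p = 0.211) and Cd163 one of -0.62 ± 0.18 (adjusted p = 0.185), while the brightest probe sets of the general markers lay between -0.37 (Csf1r) and 0.16 (Ptprc). A second, dimmer Aif1 probe set had an interaction of 0.65 ± 0.15, in the other direction (adjusted p = 0.142). Its unadjusted p in limma's test, 0.000778, was below those of Cd163 (0.00406) and Mrc1 (0.00726). For Lyz2 the interaction was -0.12, with a 95% interval from -0.56 to 0.32, and for Cybb it was -0.11, with an interval from -0.60 to 0.39. Without left atrium shunt replicate 3 the interaction was -0.50 for Cd163 (adjusted p = 0.229) and -0.44 for Mrc1 (adjusted p = 0.224), and no member passed.

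Resident-type and general markers were set side by side on each array, each gene as its log2 difference from the sham mean of the same atrium. On the right atrium shunt arrays the mean of Cd163 and Mrc1 was 0.43, 0.50 and 0.52, and the mean of the 8 general markers was 0.54, 0.53 and 0.44. The 2 kinds therefore differed by -0.02 ± 0.09 (SD, n = 3), inside the spread of the sham arrays. On the left atrium shunt arrays the resident-type mean was -0.04, 0.07 and -0.43, and the general mean was 0.50, 0.52 and -0.09. Resident-type minus general was thus -0.54, -0.46 and -0.34 on these arrays, against -0.15, -0.01 and 0.16 in left atrium sham, with no overlap, including on the array that stood apart. These are descriptions over chosen genes and carry no p-value.

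**Figure D3:**
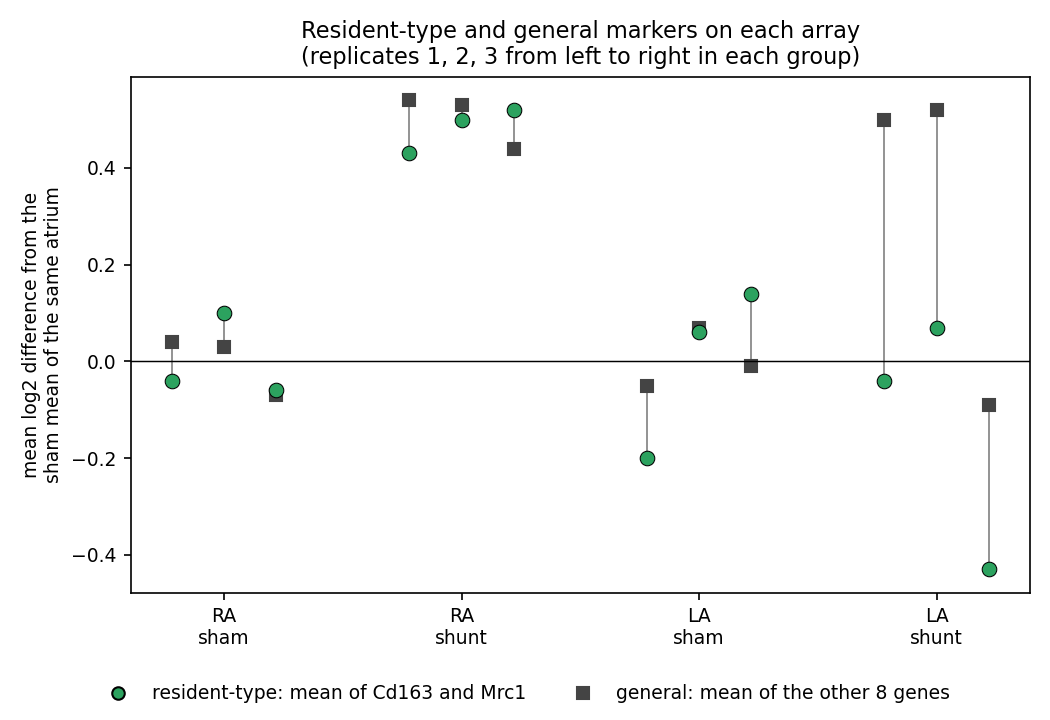
Mean log2 difference from the sham mean of the same atrium (y axis) of Cd163 and Mrc1 (circles) and of the 8 general markers (squares) on each of the 12 arrays, joined by a line per array. In the right atrium (RA) both kinds lie at 0.43 to 0.54 after the shunt; in the left atrium (LA) the circles lie 0.34 to 0.54 below the squares on all 3 shunt arrays.

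Left and right atria differed in some markers already in sham animals. Of the 10 genes, Adgre1, Cybb, Ptprc and Cd163 were lower in the left atrium, none was higher and 6 did not pass, where 15.4% of all genes were lower and 22.2% higher. For these 4 all 6 right arrays lay above all 6 left arrays, as for 12.7% of all genes, and no member had the opposite order.

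Adgre1 had the largest gap in sham. It lay at 6.05, 6.09 and 5.87 in the right atrium and at 4.85, 4.64 and 4.73 in the left, and its left minus right difference was -1.26 ± 0.14 (adjusted p = 2.93e-05), so the right atrium was 2.40-fold higher. Cybb lay at 7.10, 7.08 and 6.87 on the right and at 5.76, 5.92 and 5.59 on the left, a difference of -1.26 ± 0.16 (adjusted p = 7.93e-05). Ptprc lay at 6.66, 6.37 and 6.36 against 5.32, 5.82 and 5.48, a difference of -0.92 ± 0.16 (adjusted p = 0.000819). Cd163 lay at 6.12, 6.43 and 6.32 against 5.48, 5.77 and 5.91, a difference of -0.57 ± 0.12 (adjusted p = 0.00321).

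Other markers had smaller differences in sham. The left minus right difference of Mrc1 was 0.11 (95% interval -0.19 to 0.41), that of Csf1r 0.10 (-0.26 to 0.47), that of Cd68 -0.03 (-0.37 to 0.32) and that of Lyz2 0.22 (-0.10 to 0.53). Aif1 differed by -0.35 ± 0.15 (adjusted p = 0.0791) and Cd14 by -0.16 ± 0.12 (adjusted p = 0.306). The lower bounds of Mrc1, Csf1r, Cd68 and Lyz2 lie above the differences of Adgre1, Cybb and Ptprc. This leaves out the SE of the latter genes, and no test between genes was run.

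After the shunt, 7 genes were lower in the left than in the right atrium, none was higher and 3 (Lyz2, Cd68 and Csf1r) did not pass, where 19.4% of all genes were lower and 21% higher. Adgre1 differed by -1.50 ± 0.14 (adjusted p = 1.51e-05), Cybb by -1.37 ± 0.16 (adjusted p = 6.41e-05), Cd163 by -1.19 ± 0.12 (adjusted p = 2.81e-05) and Ptprc by -0.76 ± 0.16 (adjusted p = 0.00322). Aif1 (-0.66 ± 0.15, adjusted p = 0.00387), Mrc1 (-0.52 ± 0.14, adjusted p = 0.0109) and Cd14 (-0.43 ± 0.12, adjusted p = 0.0131) joined them. For Aif1 this holds for its brighter probe set and not for its dimmer one. These comparisons share arrays with those of shunt and sham, so they are no separate evidence of a shunt effect.

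No difference of Lyz2 between the shunted atria was detected, with levels of 10.60 ± 0.15 in the right and 10.70 ± 0.37 in the left (log2, SD, n = 3) and a difference of 0.10 with a 95% interval from -0.21 to 0.41. Without left atrium shunt replicate 3, Lyz2 was higher in the left atrium by 0.31 ± 0.09 (adjusted p = 0.0191), and the differences of Adgre1, Cybb and Cd163 were -1.30, -1.15 and -1.07, each still past the threshold. Cd14 missed it without right atrium shunt replicate 3 (adjusted p = 0.051). The beta-actin 3′ minus 5′ difference was 1.58 to 2.03 on right and 1.14 to 1.39 on left arrays. That of GAPDH was 0.32 to 0.4 on right and 0.18 to 0.28 on left arrays. The ventricular marker mean was 7.72 to 9.09 on right and 6.5 to 7.31 on left arrays. The part of RNA quality and of ventricular markers in the left and right differences was not tested.

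**Figure D4:**
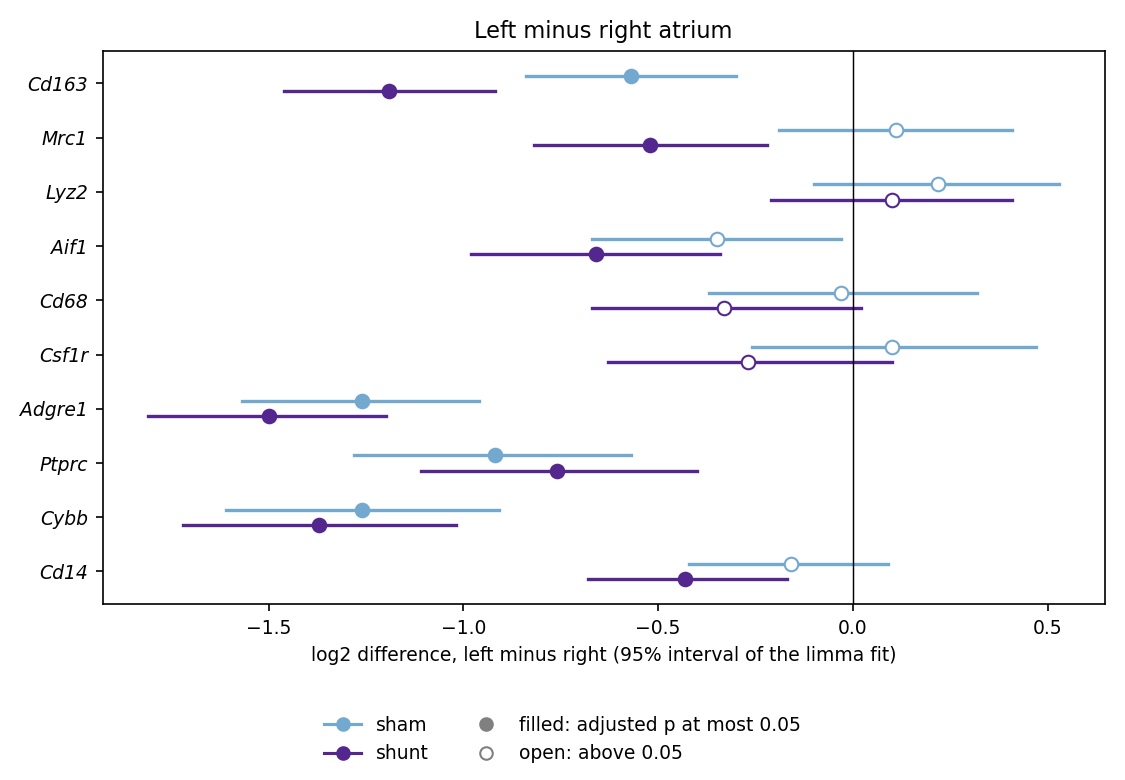
Log2 difference, left minus right atrium (x axis), of each gene's brightest probe set in sham and in shunt animals, with the 95% interval of the limma fit; filled points have an adjusted p of at most 0.05. Adgre1, Cybb, Ptprc and Cd163 lie below 0 in both conditions, and Lyz2 lies above 0 in both without passing.

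The order of the group means differed by gene. Cd163 ran from right shunt (6.67 ± 0.02, SD, n = 3) through right sham (6.29 ± 0.16) and left sham (5.72 ± 0.22) to left shunt (5.49 ± 0.20), where the last 2 overlapped. Cybb ran from right shunt (7.71 ± 0.16) through right sham (7.02 ± 0.13) and left shunt (6.34 ± 0.38) to left sham (5.75 ± 0.16), where the last 2 overlapped. Lyz2 had its highest mean in left shunt (10.70), next to right shunt (10.60), followed by left sham (10.14) and right sham (9.92). For 6 genes (Cd163, Mrc1, Aif1, Adgre1, Cybb and Cd14) the 3 right shunt arrays were higher than all 9 others, as for 7.21% of all genes.

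Aif1, Cybb and Ptprc each had a second, dimmer probe set, and these did not always follow the brighter one. The dimmer Aif1 probe set lay at 4.72, 4.61 and 4.36 in right atrium sham and at 4.21, 4.03 and 4.06 after the shunt. It fell by 0.47 (-0.47 ± 0.11, adjusted p = 0.0354), opposite to the brighter one, whose identifier carries the suffix _s_at that Affymetrix gives to probes shared by several transcripts. Its mean over the 12 arrays, 4.30, lay at percentile 32 of all probe sets, below their median level. With both Aif1 probe sets averaged, Aif1 did not pass in the right atrium (0.14, adjusted p = 0.396) or averaged over both atria (0.22, adjusted p = 0.053). Left minus right, the dimmer probe set was lower in sham (-0.40 ± 0.11, adjusted p = 0.0103) and differed by 0.26 ± 0.11 after the shunt (adjusted p = 0.0728). The average of both probe sets passed in sham (-0.38, adjusted p = 0.00456) and not after the shunt (-0.20, adjusted p = 0.0797).

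The dimmer Cybb probe set kept the direction of the brighter one in both comparisons. It lay at 4.70, 4.42 and 4.39 in right sham against 4.61, 4.94 and 4.75 after the shunt, a difference of 0.26 ± 0.13 (adjusted p = 0.267). It was lower in the left than in the right atrium in sham, by -0.55 ± 0.13 (adjusted p = 0.0045), and after the shunt, by -0.43 ± 0.13 (adjusted p = 0.0178). The latter did not pass without left atrium shunt replicate 3 (adjusted p = 0.0544). After averaging of both Cybb probe sets, Cybb did not pass in the right atrium (0.48 ± 0.13, adjusted p = 0.0545), while Cd14, which has 1 probe set, did in that fit (adjusted p = 0.0436). The dimmer Ptprc probe set (mean 4.27) passed in none of the 6 comparisons, while the brighter was lower in the left atrium in both conditions.

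**Figure D5:**
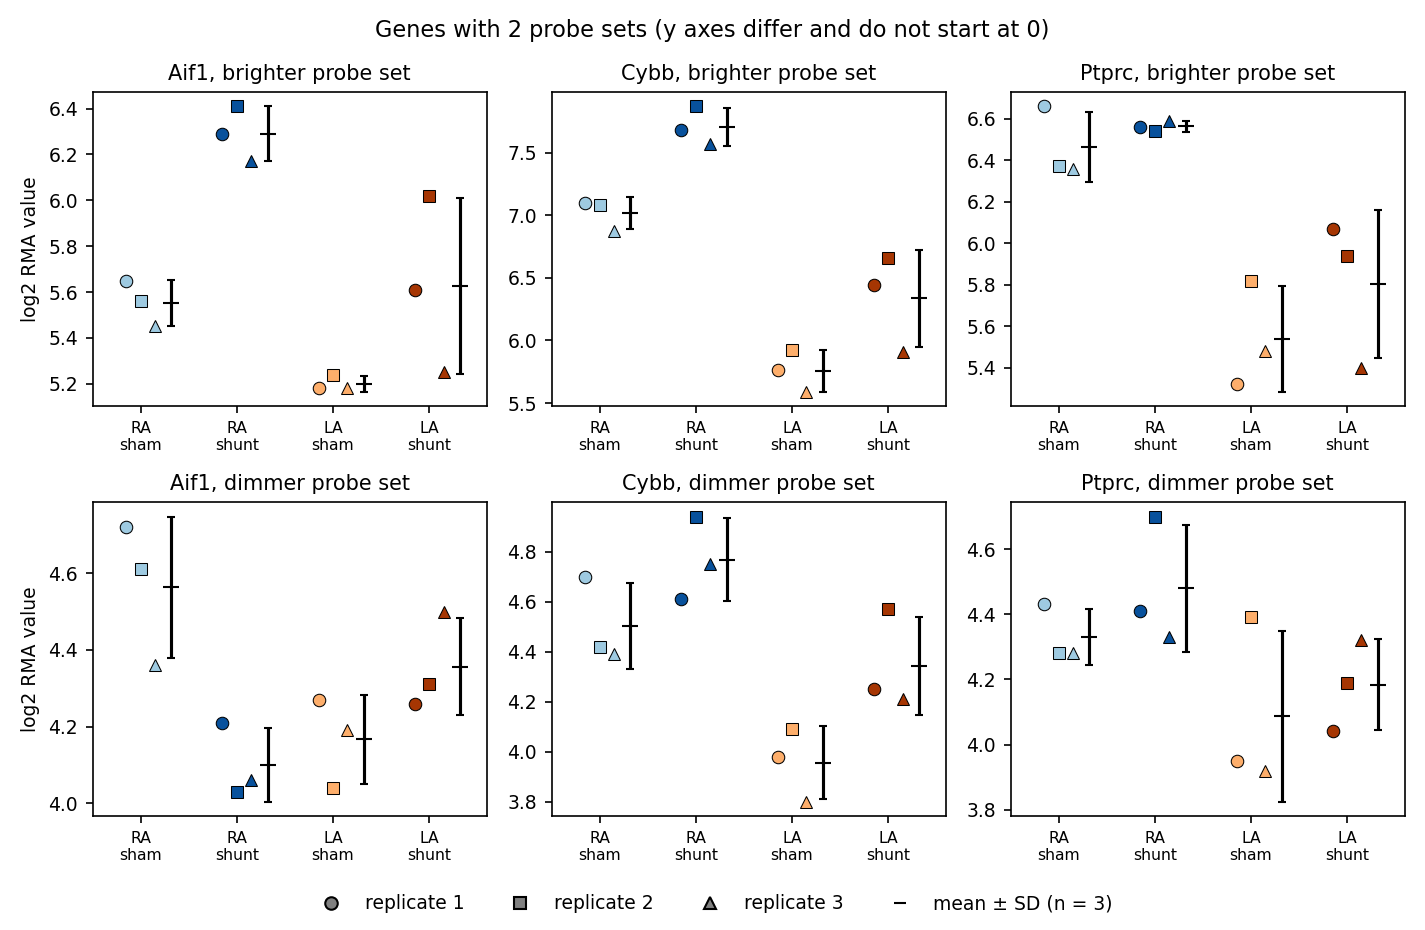
Log2 RMA value (y axis, a separate scale per panel that does not start at 0) of the brighter (top) and dimmer (bottom) probe sets of Aif1, Cybb and Ptprc by group, with 1 point per pool and the mean ± SD of 3 pools; RA is the right and LA the left atrium. The Aif1 probe sets move in opposite directions in the right atrium, by 0.74 and -0.47.

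Over the 12 arrays the members varied together. Of the 45 pairs of genes, 44 had a Pearson correlation above 0, with a median of 0.72, and after removal of the group means all 45 did, with a median of 0.68. The arrays of a group share treatment and chamber, and left atrium shunt replicate 3 is low for all 10 genes, so these are descriptions. Among 9337 other genes above the median level, the 8 whose values were most like the mean of the 10 members over the 12 arrays were Clec4a3 (r = 0.987), a myeloid lectin receptor, C5ar1 (0.983), the receptor of complement C5a, Tspan8 (0.982), Adam17 (0.98), a shedding protease, Cd53 (0.977), a leukocyte tetraspanin, Atf1 (0.977), Ifngr1 (0.976), a chain of the interferon gamma receptor, and Gpc6 (0.975). Their right atrial differences ran from 0.21 (Atf1) to 0.91 (Clec4a3), given without a test, since the genes were chosen for following the members over these same arrays.

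Genes that act with the members were counted from lists, set beside all genes, of which 2.83% rose in the right atrium and 1.14% fell. Of 7 measured CSF1R ligands and myeloid growth factor genes, Il34, a CSF1R ligand, rose in the right atrium by 0.79 ± 0.11 (adjusted p = 0.00536), none fell, and Csf1, the other ligand, differed by -0.25 ± 0.08 (adjusted p = 0.13). Il34 was higher in the left than in the right atrium in sham, by 0.92 ± 0.11 (adjusted p = 6.29e-05), the reverse of the order of Adgre1 and Cybb. Of 12 monocyte recruitment genes, the chemokine gene Ccl2 rose by 0.93 ± 0.13 (adjusted p = 0.004) and 11 did not pass.

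Of 5 measured partners of Cybb in the NADPH oxidase, Ncf4 rose in the right atrium by 0.41 ± 0.09 (adjusted p = 0.0369), and Cyba, Ncf1, Rac1 and Rac2 did not pass, with differences of 0.03 to 0.29. Of 8 genes of lipopolysaccharide sensing, which act with Cd14, Tlr4 (0.63 ± 0.13, adjusted p = 0.024) and Tlr2 (0.40 ± 0.09, adjusted p = 0.034) rose. In the left atrium no gene of these 4 lists passed in limma's test, and 4 ligand, 4 recruitment, 1 oxidase and 1 sensing gene had an unadjusted p under 0.05; Tlr4 differed there by -0.10 ± 0.13 (adjusted p = 0.775). Of 5 haemoglobin and iron handling genes linked to Cd163, none passed in limma's test in either atrium after the shunt (3 had an unadjusted p under 0.05 in the right and 2 in the left), with Hmox1, the haem-degrading enzyme, at 0.45 ± 0.18 in the right (adjusted p = 0.203). Of 13 genes of phagocytosis and lysosome, Gpnmb (0.79 ± 0.15, adjusted p = 0.0158) and the protease gene Ctss (0.47 ± 0.11, adjusted p = 0.0472) rose in the right atrium and none fell. None of 7 myeloid transcription factor genes and none of 11 partners of Ptprc passed in limma's test there, with 1 and 4 at an unadjusted p under 0.05. Over all genes, 22.4% had an unadjusted p under 0.05 in the right atrium and 14.7% in the left.

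Further macrophage markers outside the 10 were counted too. Over all genes, 2.83% rose in the right atrium, and 14.7% had an unadjusted p under 0.05 in limma's test in the left. Of 4 resident-type genes measured beside Cd163 and Mrc1, Stab1, a scavenger receptor, rose in the right atrium by 0.45 ± 0.08 (adjusted p = 0.0147), whereas Lyve1 differed by -0.04 ± 0.11, Folr2 by 0.25 ± 0.14 and F13a1 by 0.38 ± 0.17. After the shunt in the left atrium these 4 did not share one direction: Stab1 (0.17 ± 0.08) and Folr2 (0.14 ± 0.14) were above 0, near the median of 0.19 of the 14 general markers, and F13a1 (-0.12 ± 0.17) and Lyve1 (-0.32 ± 0.11) were below 0, like Cd163 and Mrc1, and none passed in limma's test (1 of the 6 resident-type genes had an unadjusted p under 0.05). The separation of Cd163 and Mrc1 from the general markers was thus not seen in every resident-type gene. Between atria in sham, F13a1 was lower on the left by -0.68 ± 0.17 (adjusted p = 0.00752), as Cd163 was, and Stab1 was higher on the left by 0.62 ± 0.08 (adjusted p = 9.34e-05). Stab1, Lyve1 and Mrc1 are also made by some endothelial cells. In sham, 3 of 5 lymphatic endothelial genes were higher on the left and 1 was lower, where 22.2% of all genes were higher and 15.4% lower. The part of endothelial cells in these results was not tested. Of 6 further general markers, Fcgr1a, a high-affinity immunoglobulin receptor, rose in the right atrium by 0.73 ± 0.15 (adjusted p = 0.0253), and Fcgr1a (-0.65 ± 0.15, adjusted p = 0.00462), Itgb2 (-0.64 ± 0.13, adjusted p = 0.00227) and C1qa (-0.35 ± 0.12, adjusted p = 0.036) were lower in the left than in the right atrium in sham.

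No marker gene of neutrophils, B cells, mast cells, T cells or NK cells rose in the right atrium after the shunt. None of 5 neutrophil, 3 B cell or 7 mast cell genes passed in limma's test. An unadjusted p under 0.05 was found for 1, 1 and 0 of them, against 22.4% of all genes. Of 10 T and NK cell genes, Gzmb fell and 9 did not pass, where 1.14% of all genes fell. Their mean log2 levels on the right atrium shunt arrays were 3.83 to 4 for neutrophil, 4.46 to 4.52 for B cell, 4.58 to 4.64 for mast cell and 4.47 to 4.50 for T and NK cell lists, all under the median of all probe sets. Of 10 monocyte and dendritic cell genes, the class II gene RT1-Da rose in the right (0.55 ± 0.11, adjusted p = 0.0232) and in the left atrium (0.57 ± 0.11, adjusted p = 0.0368). The other 9 did not pass in either atrium; in the right, 4 of the 10 were above 0 and the median was -0.07. Between atria in sham, 5 of the 10 T and NK cell genes, Nkg7 (-0.51 ± 0.11) and Cd3e (-0.49 ± 0.11) among them, were lower on the left, as Ptprc was. Of the 10, 1 (Cd4, which macrophages of rats also carry) was higher. Over all genes, 15.4% were lower and 22.2% higher on the left in sham. The part of these T and NK cell genes in the difference of Ptprc was not tested.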

How the data were processed

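Per the labels, biotinylated cRNA from pools of 2 tissues was hybridised to 1-colour Affymetrix arrays. The authors deposited log2 values, 1 per probe set; the submitters' processing notes name RMA, and its version is not given in the sources used here. RMA subtracts background, equalises the distribution of all arrays and summarises probes, so that a change shared by most transcripts is not seen. Array medians were 5.44 to 5.47, and the number of arrays limits the precision. Of 31099 probe sets, 57 controls were left out. Group and replicate number came from the titles; no 2 arrays were identical.

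Values were used as deposited, with no filter. limma 3.58.1 in R 4.3.3 fitted 1 mean per group over 12 arrays (lmFit, contrasts.fit, eBayes), with two-sided tests in 6 comparisons and Benjamini-Hochberg adjustment over 31042 probe sets. P-values measure the spread between pools. The annotation of the array named 1 gene for 20826 probe sets, several for 436 and none for 9780. Named were all member probe sets, up to 4 genes per list past the threshold with the largest change in the right atrial shunt comparison, then in left minus right, and the 8 genes most correlated with the members' mean. Csf1, Cyba, Ncf1, Rac1, Rac2, Hmox1, Lyve1 and Folr2 were named after their values were seen. The scripts were tested on simulated data. The members and lists were chosen with earlier results of these data known. Alternatives were normalization, a dim filter, eBayes options, array weights, smaller fits, probe set summaries, a replicate block and leaving out each array.

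Same-numbered arrays correlated between -0.10 and 0.15 in their deviations from group means (3 of 18 pairs over 0.1). The 6 pairs of right and left atrium after the same operation were all above 0 (0.08 to 0.15), and the other 12 ran from -0.10 to 0.07. These ranges did not overlap. The labels name no shared animals, and the replicate numbers were not taken as a pairing in the main fit. Whether left and right arrays of the same number and operation share animals was not tested. The left minus right, averaged and interaction tests therefore treat all arrays as separate.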

Additional observations from a re-analysis of the deposited data

How the results depend on the processing

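The counts of member genes past the threshold changed with these settings, and so did the share of all genes. For shunt against sham in the right atrium, 3.97% of all genes passed in the main fit. This share was 2.81% after quantile normalization again and 6.58% without left atrium shunt replicate 3, and it was not counted for most other settings. In the right atrium shunt comparison the count of 4 became 2 after quantile normalization again and 7 with array weights. It became 8 when only the compared groups were fitted, and leaving out each array gave 0 to 8. Averaging each gene's probe sets gave 3 (Mrc1, Lyz2 and Cd14), without Aif1 and Cybb. In a further fit, replicates 2 and 3 of the shunted right atrium were both set aside, a choice made once the data had been seen. All 10 members stayed higher after the shunt there, by a median of 0.53 against 0.49 in the main fit. The ventricular marker mean was 8.21 on the remaining replicate 1, against 9.09 and 8.99 on replicates 2 and 3. In the left atrium the count of 0 became 2 with array weights and 1 (Cybb) with the replicate block, and leaving out each array gave 0 to 3. Averaged over both atria, the count of 3 became 7 with array weights, and leaving out each array gave 3 to 8. The interaction stayed at 0 in all settings tried. Left minus right gave 4 to 6 genes in sham and 6 to 8 after the shunt. The replicate block left the other counts at 4 for the right atrium shunt comparison, 3 for the average, 0 for the interaction, 5 for left minus right in sham and 7 after the shunt. This block joined all arrays of 1 number, sham and shunt arrays together. A block of left with right arrays within 1 operation was not fitted, so these counts cannot show how such a pairing would change the results. The labels do not say whether the numbers mark shared animals. Left and right arrays of 1 number and operation correlated at 0.08 to 0.15, above all other same-numbered pairs (-0.10 to 0.07). Resident-type minus general in the right atrium was -0.02, and 0.08 when each gene's probe sets were averaged; in the left atrium it lay between -0.52 and -0.37 when arrays were left out. Of 1571 values of single genes under another setting, 1473 kept their side of the threshold, 48 lost it, 50 gained it and none reversed a call. The cause of these changes was not tested. Dim probe sets near the bottom of the scale, and 3 pools per group, limit what small differences can be seen.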
